A study of Rattus norvegicus with 4 samples.

Results

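Annexins and S100 proteins are calcium-binding protein families, and 28 of their genes, 11 annexins and 17 S100 genes, were measured by 31 probes on the arrays, out of 16581 genes that could be named. The members were taken by name: every gene spot whose RefSeq transcript belongs to a rat gene with a symbol of Anxa and a digit, or of S100, with the S100-binding protein gene S100pbp left out. All 4 samples were cultures of NR8383, an established line of rat alveolar macrophages that goes back to lung lavage of a normal animal, used at 20 passages. The cells were seeded in 25 cm2 flasks for 48 h, and the cultures form 1 group that received NRCWE006, which are multi-walled carbon nanotubes, for 4 h at a dose of 1 cm2/cm2. Cultures without nanotubes, which the study describes, were not analysed here. Nothing can therefore be read as a response to nanotubes, and a single line stands for the macrophage. In whole cultures, fewer cells of a type and less RNA per cell cannot be told apart. The values show which family members gave a signal in these cells and how much the 4 biological replicates varied.

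Annexins share a conserved core that binds the phospholipids of membranes when calcium rises, and they take part in vesicle traffic, membrane repair and the anchoring of actin to membranes. S100 proteins are small and mostly dimeric, and each subunit carries a pair of calcium-binding EF-hands. Several pair with an annexin, as S100a10 does with annexin A2 and S100a11 with annexin A1, and in myeloid cells S100a8 and S100a9 form the secreted complex calprotectin.

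Each sample was hybridised to 1 array in 1 colour, so precision is limited by having 4 arrays. Between 4252 and 6476 probes per array were called well above background by the scanner software, which compares a spot with its background noise. The 95th percentile of the negative control spots was a signal of 3.48 to 5.10. Replicate 4 had 1296 gene spots left out as non-uniform or outlying, against 546 to 596 on the others. A gene was counted as detected when it was well above background on all 4 arrays. Of the macrophage markers 8 of 16 (50%) were detected, where 11.9% of named genes with a value on every array were. They were Cd68, Fcgr1a, Lyz2, Spi1, Tyrobp, Fcer1g, Ctss and Lgals3. A further 3 were well above background on some arrays and 5 on none, Csf1r among the latter. The summed unscaled signal of the 8 detected markers was between 4282 and 7594 on the 4 arrays. It was highest on replicate 1 and lowest on replicate 4. The 75th percentile signal of detected probes was also highest and lowest there, at 384 and 223, so the sum does not compare cultures. None of 9 granulocyte, 10 epithelial, 7 fibroblast and 5 lymphocyte markers with a probe was detected, and 1 of 5 endothelial markers was, Vwf. On some arrays only, 2 of the epithelial and 1 of the endothelial markers were well above background. Over all named genes 70.9% were on no array, so these short lists do not show that other cell types were absent.

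Annexins made up most of the detected members. Of the 28 genes, 10 (35.7%) were detected, against 11.9% of 16419 genes with a name and a value on every array. They were 7 of 11 annexins (63.6%), Anxa1, Anxa2, Anxa4, Anxa5, Anxa6, Anxa7 and Anxa11, and 3 of 17 S100 genes (17.6%), S100a4, S100a10 and S100a11. S100a1 was well above background on 1 array, and the other 17 members on none, where 70.9% of named genes were on none. Signals of the 10 detected genes were between 8.12 and 326 times the 95th percentile of negative control spots on the same array. When negative control spots defined detection (signal above their 95th percentile plus 10% on all 4 arrays), the same 10 genes were detected, against 21.5% of named genes. The share detected was not tested against other genes, because the genes were picked by name with earlier results of these arrays known.

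**Figure D1:**
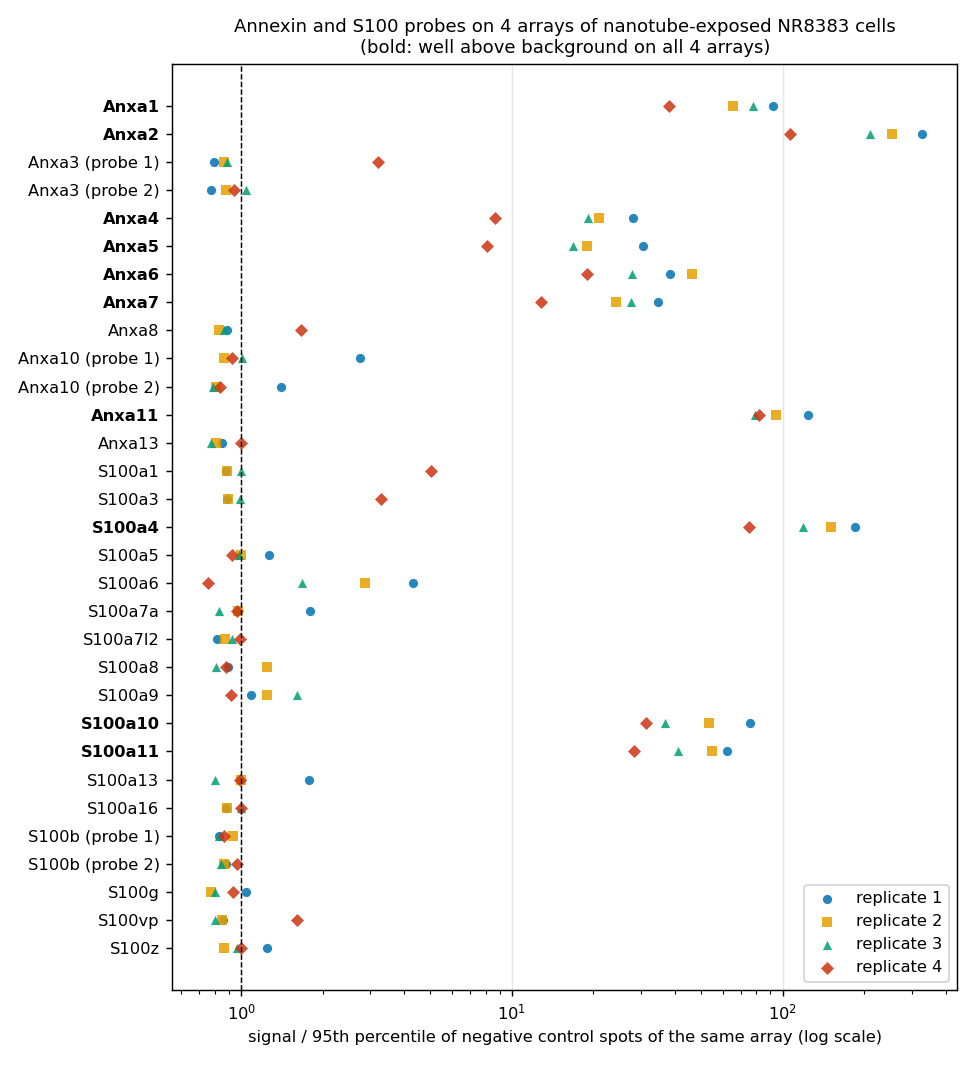
Signal of each of the 31 annexin and S100 probes on replicates 1 to 4, divided by the 95th percentile of the negative control spots of the same array (log axis; dashed line, 1). Each point shows how far a probe lay from the negative controls of its array. The signal is not scaled between arrays, so points do not compare levels between arrays, nor between probes. The 10 genes in bold lie at 8.12 or more on all 4 arrays, and S100a6 lies at 4.32, 2.87, 1.67 and 0.754 on replicates 1 to 4.

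Many of the S100 genes lie in a cluster, and neighbours in it were called differently. In the order of protein-coding genes in RefSeq assembly GRCr8, S100a3, S100a4, S100a5 and S100a6 follow each other, and of these only S100a4 was detected. S100a11 and S100a10 are direct neighbours at the far end of a run of skin barrier genes that includes Flg and the Lce and Sprr families, and both were detected. The 250 bases before the start site are printed for 5 members that show these cases: S100a4 with its near neighbour S100a6, S100a11, and the annexins Anxa1 and Anxa2. The sequences are from RefSeq, build GRCr8, 5′ to 3′ on the strand of the gene. Capitals mark matches to motifs searched on both strands. The TATA box was searched for as TATAAA. The GC box was searched for by the letters GGGCGG. The AP-1 site was searched for under the pattern TGANTCA. For PU.1, a macrophage transcription factor, the core GAGGAA was searched for.
S100a4, chr2:178388279-178388528, plus strand: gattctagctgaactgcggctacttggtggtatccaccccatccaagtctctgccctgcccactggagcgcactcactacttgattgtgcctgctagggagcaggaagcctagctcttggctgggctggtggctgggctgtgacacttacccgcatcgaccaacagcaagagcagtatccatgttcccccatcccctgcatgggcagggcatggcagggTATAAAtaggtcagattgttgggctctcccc
S100a6, chr2:178398287-178398536, plus strand: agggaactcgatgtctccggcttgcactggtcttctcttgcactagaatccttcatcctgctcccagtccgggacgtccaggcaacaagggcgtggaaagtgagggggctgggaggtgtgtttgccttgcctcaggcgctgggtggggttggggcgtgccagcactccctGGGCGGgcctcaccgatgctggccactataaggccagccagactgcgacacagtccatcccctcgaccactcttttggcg
S100a11, chr2:181874882-181875131, plus strand: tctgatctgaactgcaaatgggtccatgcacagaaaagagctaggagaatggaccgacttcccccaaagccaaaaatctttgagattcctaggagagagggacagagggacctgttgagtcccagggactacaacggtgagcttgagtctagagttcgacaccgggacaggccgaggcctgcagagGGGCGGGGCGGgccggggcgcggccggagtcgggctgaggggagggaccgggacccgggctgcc
Anxa1, chr1:227303733-227303982, minus strand: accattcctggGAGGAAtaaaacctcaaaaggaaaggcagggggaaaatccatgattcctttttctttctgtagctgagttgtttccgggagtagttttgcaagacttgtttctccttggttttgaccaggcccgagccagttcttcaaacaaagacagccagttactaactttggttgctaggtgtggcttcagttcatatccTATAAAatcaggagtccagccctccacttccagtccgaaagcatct
Anxa2, chr8:78986002-78986251, plus strand: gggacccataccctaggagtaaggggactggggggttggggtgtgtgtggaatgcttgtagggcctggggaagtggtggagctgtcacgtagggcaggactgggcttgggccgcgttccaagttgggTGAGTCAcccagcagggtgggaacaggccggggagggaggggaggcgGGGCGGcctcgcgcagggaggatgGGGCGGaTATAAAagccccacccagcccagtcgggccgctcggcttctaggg
The TATA box letters start 31 bases before the start site in S100a4, 46 in Anxa1 and 45 in Anxa2, and are in neither S100a6 nor S100a11. The GC box letters occur 2 times in S100a11, where the matches overlap by a base, 2 times in Anxa2 and 1 time in S100a6. The AP-1 letters occur in Anxa2 and the PU.1 letters in Anxa1. Over all 33465 promoter windows of this length, 12.9% held the TATA box, 30.5% the GC box, 6.34% the AP-1 and 23.3% the PU.1 letters. The 3 detected members with TATA box letters are all among those printed. Of members with a promoter entry, 3 of 8 detected and 2 of 14 others held the TATA box, against 7.63% of detected and 12.0% of other named genes. For the GC box these were 5 of 8 and 5 of 14, against 62% and 42.2%. These shares were not tested. A match describes the letters only.

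Promoter sequences were matched for 22 of the 28 genes and not for Anxa6, Anxa13, S100a1, S100a8, S100a10 and S100g. CpG dinucleotides, which are dense in the promoters of many widely expressed genes, numbered a median of 13 (3 to 24) in the 250 bases before the 8 detected members with an entry. In the 14 members that were not detected on all arrays the median was 2.5 (0 to 12). The same medians over named genes were 17 for 1729 detected genes and 10 for 12942 others, so the direction was the same across all genes. S100a4 with 4 and Anxa1 with 3 were low among the detected members, and S100a6 with 12 was high among the others.

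**Figure D2:**
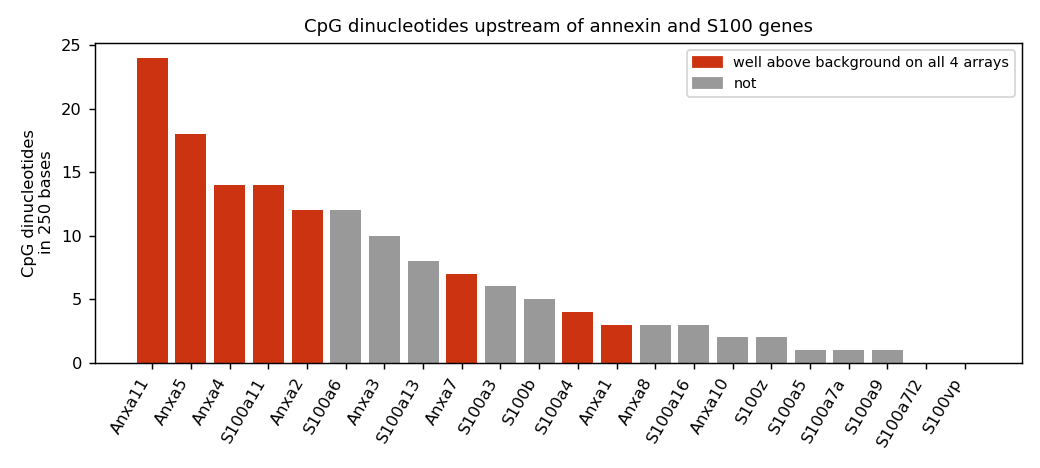
Number of CpG dinucleotides in the 250 bases before the start site of 22 annexin and S100 genes, in order of the count. Red bars are genes well above background on all 4 arrays and grey bars the others; Anxa11 has 24, S100a6 12, S100a4 4 and Anxa1 3.

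Levels are given as log2 signal relative to the 75th percentile of detected probes on the same array, for replicates 1 to 4 in order, with mean ± SD (n = 4). A level is comparable between arrays and not between genes. Anxa1, an inhibitor of inflammation induced by glucocorticoids, had levels of -0.06, -0.31, 0.40 and -0.20 (-0.04 ± 0.31). Its signals were 369, 227, 311 and 195. By level, replicate 3 was the highest and replicate 2 the lowest, 1.63-fold apart, while the unscaled signal was highest on replicate 1 and lowest on replicate 4. Anxa2, which binds actin and membranes and recruits plasminogen activator to the cell surface with S100a10, had 1.77, 1.65, 1.83 and 1.28 (1.63 ± 0.25). Replicate 4 was below the other 3, which lay close together.

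The same array was lowest for Anxa4, Anxa5 and Anxa7. Anxa4, a binder of secretory vesicle membranes, had -1.77, -1.94, -1.63 and -2.34 (-1.92 ± 0.30). Anxa5, whose binding to exposed phosphatidylserine is used to stain dying cells, had -1.66, -2.09, -1.81 and -2.43 (-2.0 ± 0.34). Its highest and lowest levels were 1.71-fold apart. With normexp background correction, which added an offset of 50, its SD was 0.12, and the median SD over all detected genes went from 0.241 to 0.167. After quantile normalization the Anxa5 SD was 0.65, and the median over all detected genes was 0.330. For Anxa4 the SD was 0.11 with normexp and 0.605 after quantile normalization. Anxa7, also called synexin, had -1.47, -1.73, -1.10 and -1.78 (-1.52 ± 0.31), so replicates 2 and 4 were low and replicate 3 high.

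Anxa6 and Anxa11 had other patterns. Anxa6, which carries a doubled annexin core, had -1.32, -0.80, -1.08 and -1.21 (-1.10 ± 0.22), with replicate 2 the highest. Anxa11, which tethers RNA granules to lysosomes, had 0.37, 0.23, 0.42 and 0.90 (0.48 ± 0.29). It was the only member of the 10 with its highest level on replicate 4, where 585 of 1946 detected genes had theirs. The unscaled signal of Anxa11 was highest on replicate 1, at 497 against 415 on replicate 4.

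Of the S100 genes, S100a4, a partner of non-muscle myosin linked to cell motility, had 0.94, 0.90, 1.01 and 0.78 (0.91 ± 0.10). S100a10, the partner of annexin A2, whose EF-hands do not bind calcium, had -0.34, -0.60, -0.68 and -0.48 (-0.53 ± 0.15). Replicate 1 was the highest there and replicate 3 the lowest, 1.26-fold apart. S100a11, also called calgizzarin, had -0.62, -0.55, -0.53 and -0.63 (-0.58 ± 0.05), a range of 1.07-fold. Over 4 arrays the 3 S100 genes had SDs of 0.05 to 0.15 and the 7 annexins SDs of 0.22 to 0.34. The ranges overlapped when replicate 2, 3 or 4 was left out, though not without replicate 1, and the families were not tested against each other. Without replicate 4 the SD was 0.09 for Anxa2, 0.10 for Anxa11, 0.15 for Anxa4, 0.05 for S100a4, 0.02 for S100a11 and 0.20 for S100a10. Without replicate 3 it was 0.12 for Anxa1, 0.15 for Anxa7 and 0.06 for S100a4, and without replicate 2 it was 0.11 for Anxa6.

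**Figure D3:**
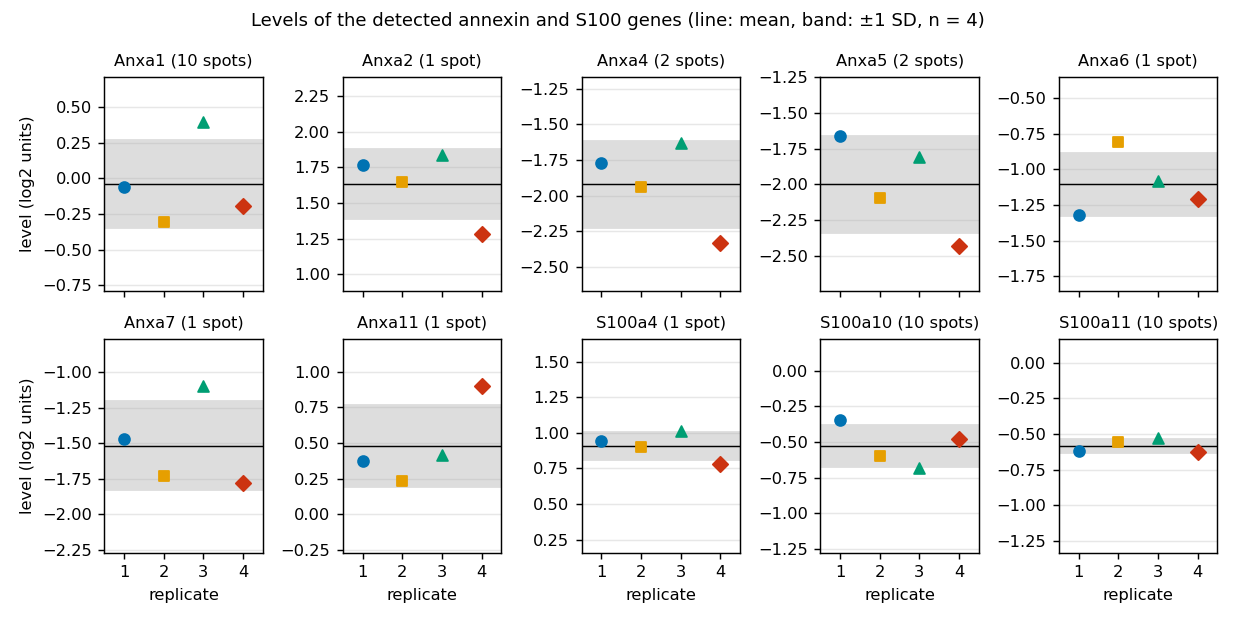
Level of the 10 detected annexin and S100 genes on replicates 1 to 4, in log2 units relative to the 75th percentile of detected probes of each array; every panel spans the same height, the line is the mean and the band ±1 SD (n = 4). Anxa2, Anxa4 and Anxa5 are lowest on replicate 4, Anxa11 is highest there, and S100a11 is nearly level.

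None of the 10 genes ranged over more than 2-fold between the highest and the lowest array, where 15.3% of the 1946 detected genes did. The median SD was 0.267 for the 10 genes and 0.241 for all detected genes. The count of 0 became 10 when arrays were scaled by all gene probes, 5 without scaling and 3 after quantile normalization, which are settings where 92.8%, 52.8% and 34.5% of all detected genes passed 2-fold. By the ratio of the largest end gap to the range over 4 arrays (Dixon's ratio), none of the 10 had 1 array far from the others, where 7.66% of detected genes did. Of the 10 values, 5 rest on 1 spot per array, 2 on 2 spots and 3 on 10 spots.

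The partners of an annexin can be set beside it. On replicate 4, Anxa2 lay at -0.47 on the log2 scale against the mean of the other arrays, while S100a10 lay at 0.06. Anxa1 and S100a11 were both highest on replicate 3, but Anxa1 ranged over 0.70 and S100a11 over 0.10 on the log2 scale. Neither pair was tested for a shared pattern. In all, 8 of the 10 members were lower on replicate 4 than the mean of replicates 1 to 3, where 56.6% of detected genes were, and 6 had their lowest level there, where 39.6% did. After subtracting the median over detected genes, which was -0.07 for the same difference, Anxa4 was at -0.48, Anxa5 at -0.51, Anxa2 at -0.39 and Anxa7 at -0.27, and Anxa11 at 0.63. These 5 kept their sign under quantile normalization, with -0.79, -0.87, -0.11, -0.32 and 0.93, and with normexp background correction, with -0.22, -0.13, -0.47, -0.15 and 0.41. Anxa1, Anxa6, S100a4, S100a10 and S100a11 changed sign under 1 or both of them. Replicate 4 was also the array with the most spots left out and the most probes well above background (6476), and their part in these differences was not tested. Scaling by all gene probes put the median over detected genes at -1.64, so that all 10 members lay below 0 on replicate 4, Anxa11 at -1.01, while Anxa11 stayed at 0.63 against that median.

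**Figure D4:**
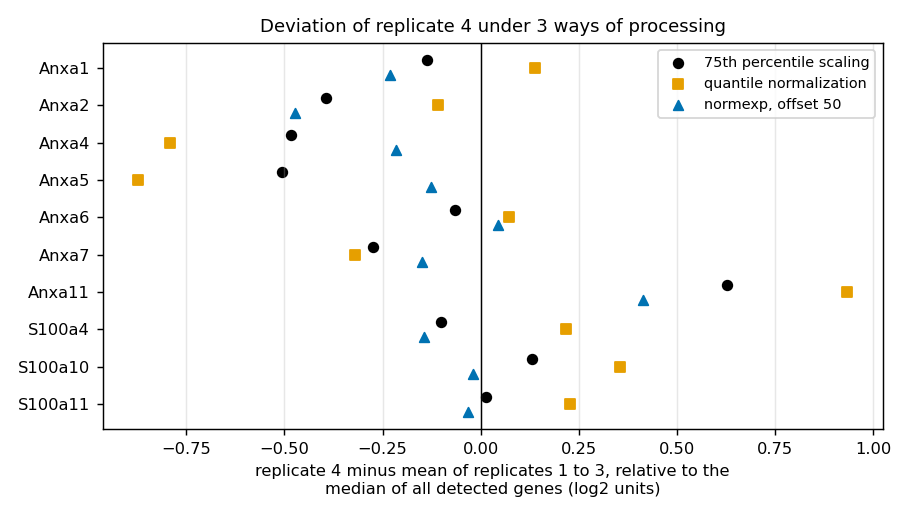
Difference between replicate 4 and the mean of replicates 1 to 3 for the 10 detected members, in log2 units after subtracting the median over detected genes, under 3 ways of processing. Anxa2, Anxa4, Anxa5 and Anxa7 are below 0 and Anxa11 is above 0 in all 3; the other members cross 0.

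The probes of Anxa1, S100a10, S100a11 and both probes of S100b were printed 10 times per array, so arrays could be compared against the noise between spots. By the moderated F test of limma over the 4 arrays, fitted on 1350 probes, 4 of these 5 probes differed (adjusted p below 0.05), where 81% of the probes did. Among probes of detected genes these were 2 of 3, where 74.6% of 709 differed. Anxa1 had adjusted p = 7.6e-09 in limma, with spot SDs of 0.15 to 0.23 within an array, and without replicate 3 the value was 0.0205. S100a10 had adjusted p = 4.3e-05 in limma, with spot SDs of 0.07 to 0.17, and without replicate 1 the value was 0.0257. S100a11 did not pass, with adjusted p = 0.728 in limma and spot SDs of 0.12 to 0.31. It passed in limma without scaling (2.3e-08) and when scaled by all gene probes (5.9e-20), settings where 96.4% and 94.5% of the 1350 probes passed. The test compares arrays, each of which is 1 culture, so RNA, labelling and hybridisation cannot be told apart. Both probes of S100b, a gene best known from glia, passed although they were at background, with signals of 3.01 to 4.92, and neither did after quantile normalization (adjusted p = 0.131 and 0.979, limma).

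**Figure D5:**
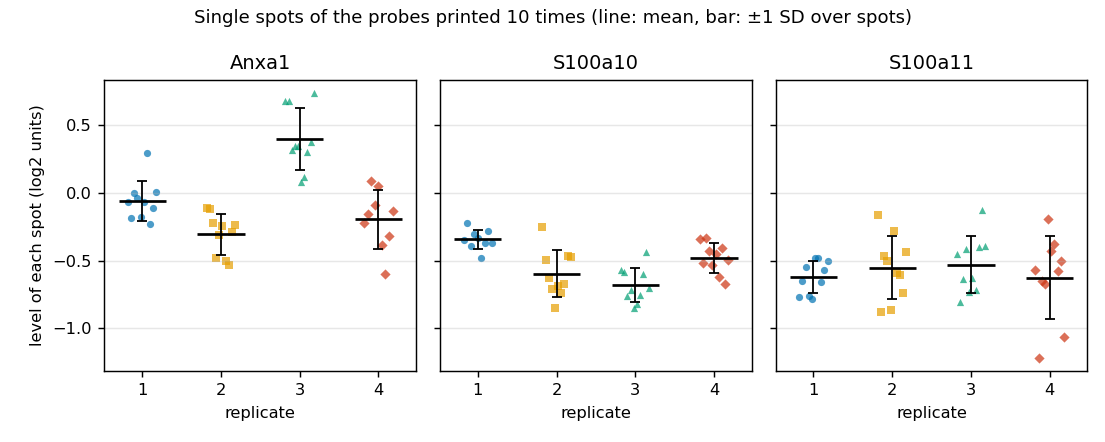
Level of every spot of the Anxa1, S100a10 and S100a11 probes on replicates 1 to 4, in log2 units relative to the 75th percentile of detected probes; lines are means and bars ±1 SD over 9 or 10 spots of an array, not over cultures. Anxa1 spots sit highest on replicate 3, S100a10 spots on replicate 1, and the S100a11 spots overlap on all 4 arrays.

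Some members that were not detected on all arrays had 1 or more arrays above the others. S100a1, known from heart and skeletal muscle, had signals of 3.51, 3.08, 3.98 and 25.5 and was well above background on replicate 4 alone, as were 7.19% of named genes. S100a3 had 3.55, 3.10, 3.97 and 16.7, and 1 of the 2 probes of Anxa3, an annexin of neutrophils, had 3.17, 3.00, 3.53 and 16.3. Both were high on replicate 4 without being called well above background, and each rests on 1 spot. S100a6, also called calcyclin, had unscaled signals of 17.3, 9.99, 6.68 and 3.84 on 1 spot per array, which give no order between arrays. It exceeded the negative control limit (over 50% of a probe's spots above the 95th percentile plus 10%) on 3 arrays, but was well above background on none.

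The calprotectin genes were near background. S100a8 had signals of 3.57, 4.33, 3.21 and 4.47, and S100a9 had 4.36, 4.34, 6.43 and 4.67. S100a8 exceeded the negative control limit on 1 array and S100a9 on 2. The 17 members that were well above background nowhere had 20 probes with signals of 2.69 to 17.3. Of these genes, 6 exceeded the negative control limit on no array, namely Anxa8, Anxa13, S100a7l2, S100a16, S100b and S100g. Anxa8 had a mean signal of 8.44 on replicate 4, where its 2 spots had 5.06 and 14.1 and 1 of them passed. A further 9 genes exceeded it on 1 array, among them Anxa10, S100a5, S100a7a, S100a13, S100vp and S100z. Not being called is a limit of these arrays, not a level of 0, and 14 of the 17 genes were measured by 1 probe. All 3 genes with 2 probes, Anxa3, Anxa10 and S100b, had neither probe well above background.

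Receptors and partners of both families were detected in part. Of 35 listed genes with a probe, 11 (31.4%) were detected, where 11.9% of named genes were, 6 were well above background on some arrays and 18 on none. Fpr1, a formyl peptide receptor that annexin A1 can engage, was on no array, and neither were Ager and Tlr4, receptors for extracellular S100 proteins. Bsg, another receptor described for S100a9, had -2.73, -2.86, -2.19 and -0.80, highest on replicate 4. Pdcd6, a calcium sensor that binds annexin A11, had -0.80, -1.08, -0.90 and -1.32, and Sri, sorcin, a partner of annexin A7, had -2.17, -2.41, -1.95 and -2.31. Myh9, the non-muscle myosin bound by S100a4, had -0.09, -0.35, -0.44 and -0.58. Of the 11 detected partners, 3 ranged over more than 2-fold, where 15.3% of detected genes did.

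Some members have near copies in the genome. The RefSeq table lists 1 pseudogene of Anxa2, 4 of Anxa7, 1 of S100a10 and 5 of S100a11, and 2 further S100a11-like genes. Whether their RNA adds to these probes was not tested.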

How the data were processed

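Spot intensities of 4 arrays were used as deposited. Per the submitters' processing notes the scans were read with Agilent Feature Extraction (version 11.0.1.1). Its processed signal is a background-subtracted intensity that is not scaled across arrays, per the file headers; median signal and background intensity columns, deposited without subtraction, served 1 alternative. The design build in the file headers is older than GRCr8.

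Control spots and spots flagged non-uniform or as population outliers were left out. Log2 signals of a probe's spots were averaged, and a probe counted as well above background where over 50% of its kept spots were. The scaling subtracted each array's 75th percentile, taken over probes that met this on all 4 arrays. The probe with the highest mean gave a gene's value. Transcript accessions without versions named 21109 of 45598 probes through RefSeq (GRCr8). Probes with at least 3 spots were tested between arrays with limma version 3.58.1 (R version 4.3.3), Benjamini-Hochberg adjusted. A simulation of 1350 probes had independent normal noise between spots, no shared difference between arrays, and changes added on replicate 4 only. There the test found 50% of the probes given a log2 change of 0.25, 88% of those given 1, and 8 of 1150 left unchanged. On the real arrays 81% of probes differed, so these rates need not hold for them. Python version 3.11.15 did the rest.

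The members, lists and rules were chosen with earlier results of these data known. Every member is named; of the lists, detected genes and the first gene on no array could be named. Ager and Tlr4 were named after their values were seen. The labels call the cultures biological replicates. The alternatives were other detection rules, scaling, background correction (normexp with an offset of 50), flagged spots, probe choice, dim probes and each replicate left out.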

Additional observations from a re-analysis of the deposited data

Results flagged for a closer look

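Of the 46 detected genes examined (10 annexin and S100 genes and the detected genes of the partner, calcium-binding and marker lists), 3 had 1 array far from the others, by the ratio of the largest end gap to the range over 4 arrays (Dixon's ratio), and none of the annexin and S100 genes did. Chance gives about 1 in 20, and 7.66% of all detected genes passed. By scaled level all 3 were high on replicate 4. The unscaled signal was also highest there for Spi1 (53.9) and Tagln2 (45.6). For Capn1 it was highest on replicate 1, at 68.0 against 52.7 on replicate 4. Capn1, a calcium-dependent protease, had a ratio of 0.840 with levels of -2.50, -2.58, -2.54 and -2.08, on 2 spots per array. Spi1, the macrophage transcription factor PU.1, had 0.904 with -3.58, -3.48, -3.44 and -2.05, on 1 spot per array. Tagln2, an actin-binding protein, had 0.881 with -3.39, -3.41, -3.28 and -2.29, on 10 spots per array.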

How the results depend on the processing

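The count of 10 detected members kept the same 10 genes under every alternative run, with S100a1 added (11) when 1 array was enough, and was 10 without each replicate. The count of detected partner and calcium-binding genes was 27, and 31 on at least 3 arrays, 37 by negative controls, 40 on at least 1 array and 27 to 29 without 1 replicate. Over all named genes the count was 1946, and 2538 on at least 3 arrays, 3532 by negative controls, 4767 on at least 1 array and 1951 to 2459 without 1 replicate. The median SD of 0.267 was 0.903 when scaled by all gene probes, 0.442 without scaling, 0.166 with normexp and 0.177 to 0.295 without 1 replicate, lowest without replicate 4. Over all detected genes the median SD of 0.241 was 0.851 when scaled by all gene probes, 0.456 without scaling and 0.167 with normexp. There it was 0.192 to 0.254 without 1 replicate, and also lowest without replicate 4. The number of members over 2-fold, 0, was 10, 5 and 3 when scaled by all gene probes, without scaling and after quantile normalization, and 0 without each replicate. With no filter on dim probes it was 15 of 28, where 72.5% of named genes passed 2-fold. The 4 probes that differed between arrays were 2 after quantile normalization, where 57.9% of all probes differed, and 4 without each replicate. They were 2 when only probes well above background were fitted (fewer probes tested), where 74.5% differed. The cause of the other shifts was not tested. No paired analysis was possible because there is 1 group. Signals near the negative controls carry no order between arrays.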

Other observations

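Other calcium-binding genes were detected at a share near that of the annexin and S100 partners: 16 of 48 listed genes with a probe (33.3%, against 11.9% of named genes), with 7 on some arrays and 25 on none. The actin regulators of phagocytes Capg and Lcp1, each on 10 spots per array, had levels on replicates 1 to 4 of 1.69, 1.85, 1.94 and 1.95, and -0.37, -0.74, -0.52 and -0.89. Gca, which encodes the sorcin relative grancalcin, had 1.69, 0.90, 1.22 and 0.78, and Aif1, the EF-hand protein of macrophages, -2.23, -2.25, -2.11 and -2.41. Of the 16 detected genes, 2 ranged over more than 2-fold between arrays, where 15.3% of all detected genes did.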
